A study of Mus musculus with 16 samples.

Results

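The genes described here are 32 genes of meningeal fibroblasts and of the collagen-rich matrix these cells lay down, out of 38924 genes in the count files of 16 mouse brain libraries. They were chosen by symbol, with earlier results of these data known, including which libraries stand apart. Each symbol matched 1 gene identifier, and all 32 were among the 18111 genes with enough counts to be tested. They comprise 9 collagen genes, 9 genes of other matrix proteins, 4 genes of membrane transporters, 6 genes of secreted factors and enzymes including the retinoid pathway, and 4 genes of transcription factors.

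Polyadenylated RNA was sequenced from the periaqueductal gray, the midbrain region around the aqueduct through which opioids relieve pain. The 4 groups were RGSz1 knockout (KO) mice given morphine, wild-type (WT) mice given morphine, naive KO mice and naive WT mice, with 4 libraries each. All mice were male, each library pooled punches of 2 animals, and the labels give neither the dose and duration of morphine nor the age of the mice or the making of the knockout allele. The labels call the 4 libraries of a group biological replicates, so p-values measure the spread between pools of mice. Libraries are named by group and number, for example KO_Morphine_3.

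Fibroblasts of the meninges, the membranes around the brain, sit in the pia, arachnoid and dura and along larger vessels that enter the tissue. They secrete fibrillar collagens and small leucine-rich proteoglycans, carry solute transporters, and in development make retinoic acid, IGF-II and other signals for the brain beneath. Brain tissue proper holds few such cells. In bulk libraries, fewer cells of a type and less RNA per cell cannot be told apart.

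Totals over genes ran from 19.1 to 55.0 M counts (mega counts) a library. Levels below are TMM-scaled counts per mega counts of the library (CPM). Rgs20, the gene of RGSz1, stood at 11.4 to 14.4 CPM over all 16 libraries and was not called lower in the libraries labelled knockout (-0.11 ± 0.07 on the log2 scale for KO morphine against WT morphine, -0.02 ± 0.07 for KO naive against WT naive, edgeR adjusted p = 0.668 and 0.943). KO below is the label, and reads outside a deleted part would not show a deletion. All 13 members that define meningeal fibroblasts (Dcn, Lum, Col1a1, Col1a2, Col3a1, Slc6a13, Slc22a6, Slc13a4, Aldh1a2, Foxc1, Foxd1, Tbx18 and Twist1) had counts in every library. Their lowest count was 6, for Foxd1 in KO_Morphine_2, and low counts of this size carry a large sampling error. The span of another annotated gene, introns included, overlaps that of 13 members (Col1a2, Col3a1, Col5a1, Col5a2, Col6a3, Col12a1, Ogn, Fn1, Islr, Slc6a13, Igf2, Aldh1a2 and Tbx18). Whether part of their counts is its own cannot be seen from the counts.

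The regions just before the start sites of 4 members are shown because these are the genes with a single annotated start whose levels followed the other members most closely. RefSeq on GRCm38.p6 gave promoter windows for 22 of the 32 members. Each line holds the 250 bases before the RefSeq start, read 5′ to 3′ on the strand of the gene. For Col1a2 this window lies inside the gene's span in GENCODE M21 (4504814 to 4541544), which starts farther upstream. Capitals mark matches, on either strand, to the TATA box (TATAAA), the CCAAT box, the GC box (GGGCGG), the forkhead core (GTAAACA) or the T-box core (TCACACCT), and matches that overlap run together.
Aldh1a2, chr9:71215539-71215788, plus strand: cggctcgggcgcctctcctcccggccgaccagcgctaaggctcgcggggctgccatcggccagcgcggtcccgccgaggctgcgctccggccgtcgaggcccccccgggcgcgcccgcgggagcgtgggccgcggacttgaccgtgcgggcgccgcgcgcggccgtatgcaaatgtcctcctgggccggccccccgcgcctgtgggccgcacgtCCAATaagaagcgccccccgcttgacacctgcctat
Slc22a6, chr19:8617746-8617995, plus strand: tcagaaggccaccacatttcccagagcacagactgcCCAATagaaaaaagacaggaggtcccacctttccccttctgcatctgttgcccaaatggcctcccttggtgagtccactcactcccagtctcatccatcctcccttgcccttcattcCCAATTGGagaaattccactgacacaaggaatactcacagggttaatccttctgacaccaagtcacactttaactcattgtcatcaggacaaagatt
Col1a2, chr6:4505368-4505617, plus strand: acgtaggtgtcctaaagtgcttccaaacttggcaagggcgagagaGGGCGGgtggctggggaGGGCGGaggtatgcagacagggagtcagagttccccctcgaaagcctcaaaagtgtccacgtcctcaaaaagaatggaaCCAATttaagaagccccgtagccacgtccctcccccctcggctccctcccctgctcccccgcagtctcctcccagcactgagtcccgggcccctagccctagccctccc
Ogn, chr13:49607765-49608014, plus strand: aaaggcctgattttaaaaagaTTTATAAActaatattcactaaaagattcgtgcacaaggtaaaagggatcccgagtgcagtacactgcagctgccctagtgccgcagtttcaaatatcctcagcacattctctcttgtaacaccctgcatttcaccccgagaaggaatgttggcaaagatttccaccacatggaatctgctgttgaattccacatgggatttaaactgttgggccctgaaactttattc
Aldh1a2 and Slc22a6 carried CCAAT boxes, Col1a2 a CCAAT box and a pair of GGGCGG boxes, and Ogn TATA box matches on both strands. The 22 members had 30 windows, since a gene has 1 for each annotated start. Of these 30, 33.3% held the CCAAT box, 46.7% the GC box, 10.0% the TATA box, 3.33% (1 window, of Col6a1) the forkhead core and none the T-box core. Among all 32851 windows of the same length, 33.8% held the CCAAT box, 32.7% the GC box, 12.4% the TATA box, 3.17% the forkhead core and 1.12% the T-box core. The E-box CANNTG was in 63.3% of the members' windows and in 66.2% of all windows.

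The members set single libraries apart rather than the 4 groups. KO_Morphine_3, WT_Naive_2 and, less so, KO_Morphine_1 carried high levels of many members, and the other 13 lay close together. The mean of the members' log2 CPM, centred over the 16 libraries, was 1.56 in KO_Morphine_3, 0.58 in KO_Morphine_1 and 2.06 in WT_Naive_2, and lay between -0.53 and -0.11 in the other 13. The summed level of the 32 members was 2605 CPM in KO_Morphine_3, 1196 in KO_Morphine_1 and 2792 in WT_Naive_2, against 470 to 649 CPM in the other 13. Ptgds alone makes up most of that sum. Without Ptgds the sums were 765, 358 and 1074 CPM in the same 3 libraries and 192 to 234 CPM in the others.

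Against the median of the 16 libraries, 24 of the 32 members were over 2-fold higher in KO_Morphine_3, where 1.52% of all 18111 tested genes were. In KO_Morphine_1 the count was 10 of 32, with 0.762% of all genes, and in WT_Naive_2 it was 28 of 32, with 2.15% of all genes. None of the other 13 libraries had more than 1 such member. WT_Naive_2 was the highest of all 16 libraries for 29 members, with 12.3% of all genes, KO_Morphine_3 for the other 3 (Col5a2, Dcn and Ptgds), with 6.15% of all genes, and KO_Morphine_1 for 0, with 6.73% of all genes. WT_Naive_2 came first and KO_Morphine_3 second for 27 members, and KO_Morphine_1 came next after both for 20. The 2 remaining KO morphine libraries and the 3 remaining WT naive libraries lay among the rest, so each of these groups was split within itself.

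**Figure D1:**
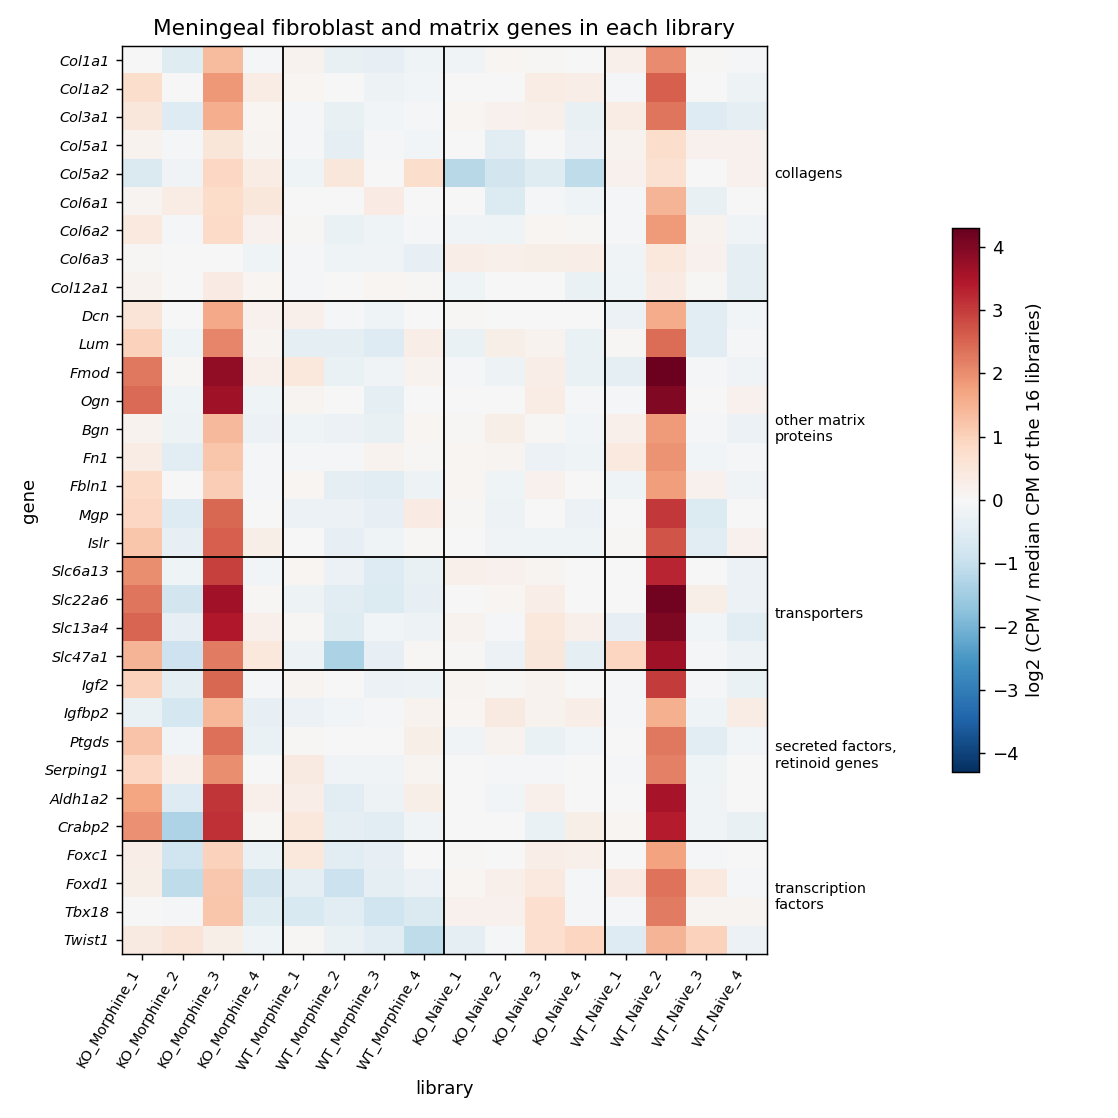
Level of the 32 members (rows, grouped by role) in each of the 16 libraries (columns), as log2 of CPM over the gene's median CPM. The columns KO_Morphine_3 and WT_Naive_2 are red for most rows and KO_Morphine_1 for fewer, while the other 13 columns stay near 0 for most rows.

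Among the collagens, the fibrillar types I and III were high in the same libraries. Col1a2 (chromosome 6, 4504814 to 4541544, plus strand, GRCm38), a chain of type I collagen, had 17.8, 10.5, 37.9 and 12.9 CPM in KO morphine libraries 1 to 4, 11.0, 10.2, 8.94 and 9.55 in WT morphine, 10.2, 10.3, 13.1 and 12.7 in KO naive and 9.91, 61.6, 10.2 and 9.05 in WT naive. KO_Morphine_3 and WT_Naive_2 stood far above all others, KO_Morphine_1 came next, and the other 13 libraries ran from 8.94 to 13.1 CPM. Col1a1 (chromosome 11, 94936224 to 94953042, plus strand), the partner chain, had 6.01, 4.23, 15.5 and 5.80 CPM in KO morphine libraries 1 to 4, 6.78, 4.94, 4.83 and 5.40 in WT morphine, 5.50, 6.46, 6.30 and 6.20 in KO naive and 7.10, 24.7, 6.36 and 5.92 in WT naive. Here KO_Morphine_1 lay inside the range of the 13 others, and only KO_Morphine_3 and WT_Naive_2 stood out. Col3a1, the chain of type III collagen, reached 10.0 CPM in KO_Morphine_3, 4.77 in KO_Morphine_1 and 16.8 in WT_Naive_2, against 2.32 to 4.24 CPM in the other 13.

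Type VI collagen forms beaded filaments near cell surfaces, and its chains parted from each other. Col6a1 (chromosome 10, 76708792 to 76726168, minus strand), the collagen member with the highest mean level per kilobase of exon (2.46 CPM per kb), had 10.1, 11.4, 15.8 and 13.0 CPM in KO morphine libraries 1 to 4, 9.27, 9.10, 11.8 and 9.07 in WT morphine, 9.32, 6.09, 8.93 and 8.04 in KO naive and 8.71, 25.3, 7.38 and 9.07 in WT naive. WT_Naive_2 was highest and KO_Morphine_3 next, but KO_Morphine_4 and WT_Morphine_3 followed closely. Col6a2 was 1.78-fold in KO_Morphine_3, 1.33-fold in KO_Morphine_1 and 3.52-fold in WT_Naive_2 over its median. Col6a3 was 1.01-fold in KO_Morphine_3, 1.03-fold in KO_Morphine_1 and 1.37-fold in WT_Naive_2, and the 4 KO naive libraries, at 15.1 to 16.1 CPM, lay above all but WT_Naive_2. Col12a1, a chain of fibril-associated type XII collagen, moved little and was 1.26-fold in KO_Morphine_3, 1.11-fold in KO_Morphine_1 and 1.27-fold in WT_Naive_2.

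Type V collagen sits inside type I fibrils and limits their width. Col5a1 (chromosome 2, 27886425 to 28039514, plus strand) had 6.32, 5.49, 8.24 and 6.23 CPM in KO morphine libraries 1 to 4, 5.38, 4.27, 5.31 and 5.23 in WT morphine, 5.68, 4.14, 5.69 and 4.76 in KO naive and 6.27, 9.49, 6.43 and 6.44 in WT naive, with WT_Naive_2 and KO_Morphine_3 highest. Col5a2 (chromosome 1, 45374321 to 45503282, minus strand) had 5.50, 7.77, 15.7 and 10.7 CPM in KO morphine libraries 1 to 4, 7.52, 12.0, 8.51 and 14.3 in WT morphine, 3.70, 4.96, 5.90 and 3.97 in KO naive and 9.61, 13.4, 8.59 and 9.69 in WT naive. It was the member that followed the others least, with a Pearson r of 0.358 over the 16 libraries against the mean of the other 31 (description only). Its lowest values were 3 of the 4 KO naive libraries, and KO_Morphine_1 was below its median. Over all 9 collagens, 3 were above 2-fold of the median in KO_Morphine_3, 0 in KO_Morphine_1 and 5 in WT_Naive_2.

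All 9 genes of other matrix proteins were above 2-fold of the median in KO_Morphine_3 and in WT_Naive_2, and 3 of 9 in KO_Morphine_1. Fmod, fibromodulin, and Ogn, osteoglycin, are small leucine-rich proteoglycans that bind collagen fibrils, and they had the widest swings of this class. Fmod had 13.5, 2.85, 39.1 and 3.22 CPM in KO morphine libraries 1 to 4, 3.76, 2.28, 2.48 and 3.10 in WT morphine, 2.61, 2.41, 3.42 and 2.28 in KO naive and 2.10, 51.6, 2.70 and 2.48 in WT naive. Ogn had 12.4, 2.01, 28.9 and 2.01 CPM in KO morphine libraries 1 to 4, 2.50, 2.28, 1.69 and 2.27 in WT morphine, 2.31, 2.29, 2.88 and 2.15 in KO naive and 2.18, 36.4, 2.25 and 2.61 in WT naive. For both genes the 3 libraries were separate from the other 13, which ran from 2.10 to 3.76 CPM for Fmod and from 1.69 to 2.88 CPM for Ogn. Their relatives moved less. Dcn, decorin, was 3.09-fold in KO_Morphine_3, 1.46-fold in KO_Morphine_1 and 3.02-fold in WT_Naive_2 over its median, Lum, lumican, was 4.24-fold in KO_Morphine_3, 1.97-fold in KO_Morphine_1 and 5.23-fold in WT_Naive_2, and Bgn, biglycan, was 2.64-fold in KO_Morphine_3, 1.11-fold in KO_Morphine_1 and 3.56-fold in WT_Naive_2.

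Mgp (chromosome 6, 136872435 to 136875823, minus strand), matrix Gla protein, an inhibitor of calcification made by fibroblasts and vessel walls, had the highest level per kilobase of this class (10.0 CPM per kb). It had 12.9, 4.76, 38.9 and 7.08 CPM in KO morphine libraries 1 to 4, 5.80, 5.87, 5.45 and 8.87 in WT morphine, 7.18, 5.95, 6.91 and 5.83 in KO naive and 6.98, 56.8, 4.62 and 6.98 in WT naive. The 3 libraries were again the highest. Fn1 (chromosome 1, 71585520 to 71653200, minus strand), fibronectin, had 40.8, 23.8, 74.4 and 30.3 CPM in KO morphine libraries 1 to 4, 30.7, 31.5, 35.8 and 33.4 in WT morphine, 34.5, 34.8, 27.4 and 28.7 in KO naive and 43.1, 125, 30.1 and 31.0 in WT naive. WT_Naive_1 was above KO_Morphine_1 for this gene. Fbln1 (chromosome 15, 85205949 to 85286535, plus strand), fibulin-1, a glycoprotein of elastic and basement membrane matrix, had 17.4, 9.99, 20.6 and 9.43 CPM in KO morphine libraries 1 to 4, 10.4, 7.54, 7.27 and 8.47 in WT morphine, 10.4, 8.62, 11.2 and 9.82 in KO naive and 8.75, 34.6, 11.2 and 8.83 in WT naive, with the 3 libraries above all others. Islr, a leucine-rich protein of mesenchymal cells, was 5.95-fold in KO_Morphine_3, 2.29-fold in KO_Morphine_1 and 6.53-fold in WT_Naive_2 over its median.

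**Figure D2:**
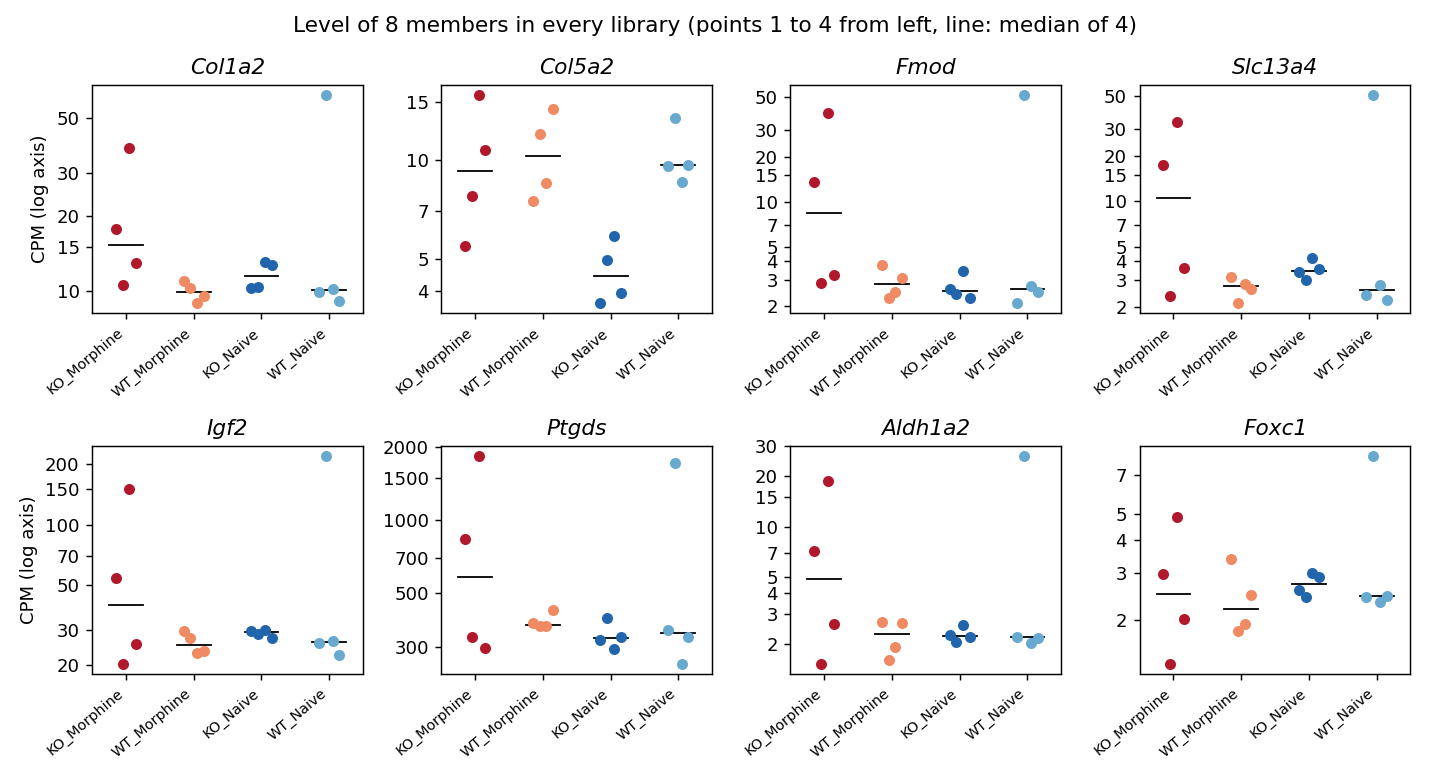
CPM (log axis) of 8 members in every library of the 4 groups, with the group's median as a line. In all panels but that of Col5a2 the high points are KO_Morphine_3 and WT_Naive_2, with KO_Morphine_1 next for Col1a2, Fmod, Slc13a4, Igf2, Ptgds and Aldh1a2.

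The 4 transporter genes were the class with the largest swings. Their median fold over the 16-library median was 9.28 in KO_Morphine_3, 4.41 in KO_Morphine_1 and 14.5 in WT_Naive_2, and all 4 passed 2-fold in each of the 3 libraries. Slc6a13 (chromosome 6, 121300227 to 121337733, plus strand), the GABA and taurine carrier GAT2 of the leptomeninges, had 12.2, 2.69, 23.5 and 2.83 CPM in KO morphine libraries 1 to 4, 3.28, 2.60, 2.10 and 2.50 in WT morphine, 3.57, 3.49, 3.38 and 3.13 in KO naive and 3.04, 30.1, 3.04 and 2.58 in WT naive. Slc13a4 (chromosome 6, 35267957 to 35308131, minus strand), a sodium-coupled sulfate carrier, had 17.4, 2.38, 33.6 and 3.61 CPM in KO morphine libraries 1 to 4, 3.15, 2.13, 2.85 and 2.64 in WT morphine, 3.39, 3.00, 4.25 and 3.57 in KO naive and 2.40, 50.2, 2.80 and 2.21 in WT naive. No library outside the 3 passed 3.57 CPM for Slc6a13 or 4.25 CPM for Slc13a4. Slc22a6, the organic anion transporter OAT1, had 6.61, 0.793, 16.7 and 1.39 CPM in KO morphine libraries 1 to 4, 1.17, 0.995, 0.901 and 1.05 in WT morphine, 1.33, 1.45, 1.66 and 1.36 in KO naive and 1.35, 23.8, 1.62 and 1.13 in WT naive. Slc47a1, the cation and proton exchanger MATE1, reached 6.38 CPM in KO_Morphine_3, 3.73 in KO_Morphine_1 and 17.1 in WT_Naive_2, and was at 0.533 to 2.55 CPM in the other 13. Its ratio of WT_Naive_2 to KO_Morphine_3, 2.67, was the highest of the 32, where the median ratio was 1.41 and the lowest 0.855, for Col5a2.

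Of the 6 secreted factors, enzymes and retinoid genes, all passed 2-fold in KO_Morphine_3 and WT_Naive_2 and 3 in KO_Morphine_1. Ptgds (chromosome 2, 25466709 to 25470046, minus strand), the prostaglandin D synthase abundant in cerebrospinal fluid, had by far the highest level per kilobase of all members (335 CPM per kb). It had 838, 329, 1841 and 296 CPM in KO morphine libraries 1 to 4, 375, 366, 365 and 425 in WT morphine, 321, 395, 294 and 330 in KO naive and 352, 1717, 256 and 329 in WT naive. KO_Morphine_3 was above WT_Naive_2 here. Oligodendrocytes and arachnoid cells are also known to make this enzyme. Igf2 (chromosome 7, 142650766 to 142666816, minus strand), which encodes the growth factor IGF-II, had 54.3, 20.4, 150 and 25.6 CPM in KO morphine libraries 1 to 4, 29.8, 27.3, 23.2 and 23.5 in WT morphine, 29.7, 28.6, 30.1 and 27.4 in KO naive and 25.8, 219, 26.5 and 22.4 in WT naive. The 13 other libraries ran only from 20.4 to 30.1 CPM. Igfbp2 (chromosome 1, 72824503 to 72852474, plus strand), which encodes a binding protein that carries IGF-II, had 12.6, 9.09, 42.0 and 12.2 CPM in KO morphine libraries 1 to 4, 13.1, 14.1, 14.7 and 17.1 in WT morphine, 16.2, 20.1, 17.3 and 18.7 in KO naive and 14.5, 44.5, 13.5 and 19.2 in WT naive. KO_Morphine_1 was not raised for Igfbp2, and stood with the other 2 KO morphine libraries at the low end.

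Aldh1a2 (chromosome 9, 71215789 to 71296243, plus strand), the enzyme that makes retinoic acid, followed the other members most closely of all (Pearson r = 0.991 over the 16 libraries). It had 7.18, 1.53, 18.7 and 2.63 CPM in KO morphine libraries 1 to 4, 2.72, 1.60, 1.92 and 2.67 in WT morphine, 2.25, 2.06, 2.59 and 2.19 in KO naive and 2.21, 26.2, 2.03 and 2.19 in WT naive. The 3 libraries stood apart from the rest without overlap. Crabp2, which carries retinoic acid to the nucleus, was 8.81-fold in KO_Morphine_3, 3.92-fold in KO_Morphine_1 and 10.5-fold in WT_Naive_2 over its median. Serping1, the inhibitor of complement C1, was 4.02-fold in KO_Morphine_3, 1.85-fold in KO_Morphine_1 and 4.46-fold in WT_Naive_2.

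The 4 transcription factors were low in all libraries, and all 4 passed 2-fold in WT_Naive_2, 2 in KO_Morphine_3 and 0 in KO_Morphine_1. Foxc1 (chromosome 13, 31806633 to 31812476, plus strand), a forkhead factor needed for meninges to form, had 2.97, 1.37, 4.88 and 2.01 CPM in KO morphine libraries 1 to 4, 3.37, 1.81, 1.93 and 2.47 in WT morphine, 2.58, 2.44, 2.99 and 2.89 in KO naive and 2.44, 8.21, 2.33 and 2.46 in WT naive. KO_Morphine_1 lay below WT_Morphine_1 and KO_Naive_3, inside the range of the 13 others. Twist1 (chromosome 12, 33957671 to 33959829, plus strand), a basic helix-loop-helix factor of mesenchyme, had 1.58, 1.80, 1.46 and 1.08 CPM in KO morphine libraries 1 to 4, 1.26, 0.995, 0.883 and 0.568 in WT morphine, 0.920, 1.17, 2.02 and 2.32 in KO naive and 0.826, 3.38, 2.45 and 1.03 in WT naive. WT_Naive_2 was its highest library, but KO_Morphine_3 lay inside the range of the 13 others, below WT_Naive_3, KO_Naive_3, KO_Naive_4 and KO_Morphine_2. KO_Morphine_3 was also below KO_Morphine_1 for this gene. Foxd1, another forkhead factor, was 2.25-fold in KO_Morphine_3, 1.18-fold in KO_Morphine_1 and 5.06-fold in WT_Naive_2 over its median, and Tbx18, a T-box factor of mural and mesenchymal cells, was 2.28-fold in KO_Morphine_3, 1.02-fold in KO_Morphine_1 and 4.74-fold in WT_Naive_2.

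**Figure D3:**
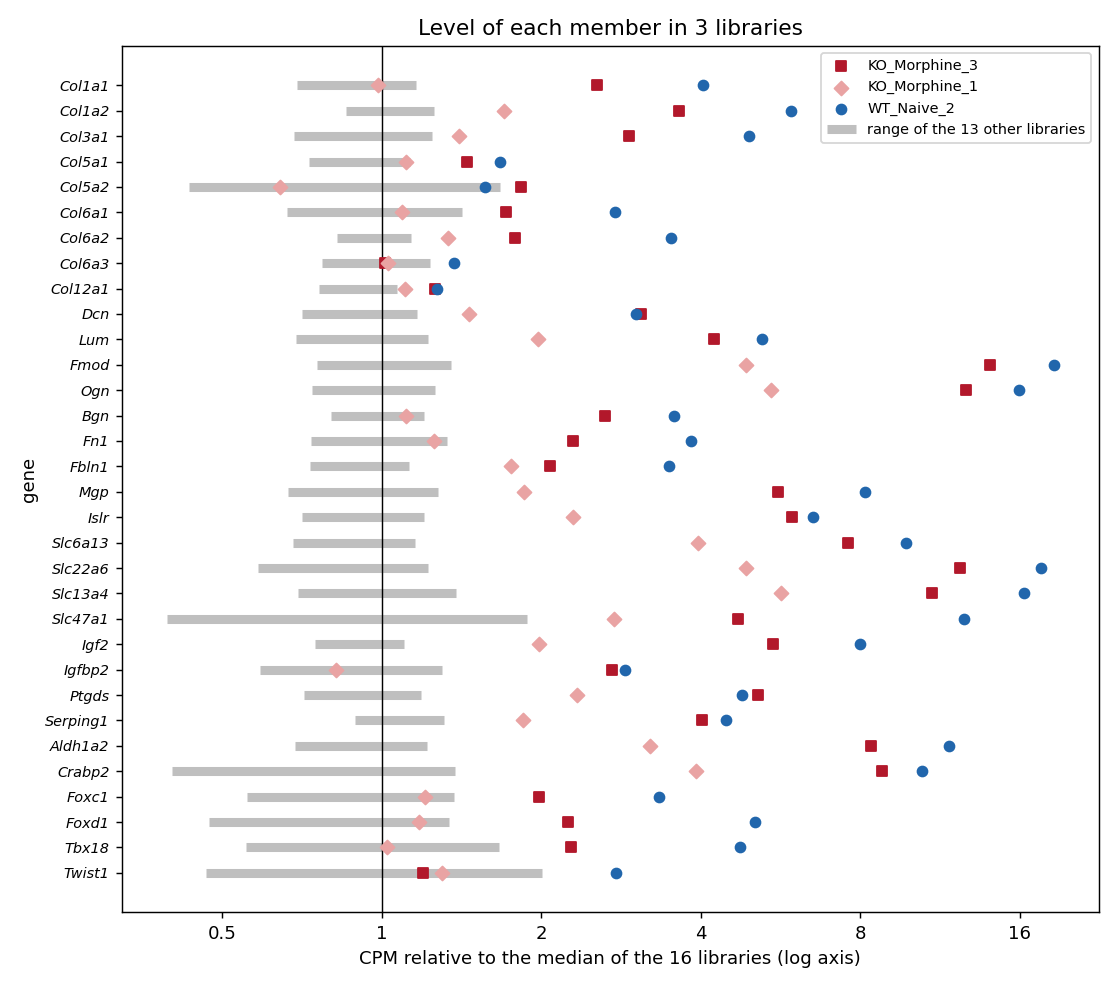
CPM of each member relative to its 16-library median (log axis) in KO_Morphine_3, KO_Morphine_1 and WT_Naive_2, with the range of the 13 other libraries as a grey bar. Transporters, Fmod, Ogn, Aldh1a2 and Crabp2 lie farthest to the right. Col5a2, Col6a3 and Twist1 are among the members with points inside the grey bar, as are Col1a1 and Foxc1 for KO_Morphine_1.

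How closely the members moved together depended on these libraries. The median Pearson r of a member's log2 CPM with the mean of the other 31 was 0.949 over 16 libraries, and 22 members were above 0.9. Over the 13 other libraries alone the median was 0.479, and 5 members had a negative r. Between single members the median r over 496 pairs was 0.861 with all 16 libraries and 0.195 with the 13. These are descriptions over libraries that share the same 3 high values. Col5a2 (0.358), Col6a3 (0.418) and Twist1 (0.472) had the lowest r over the 16, and Col12a1 had 0.703. Within the 13 other libraries the highest value of a member was a median 1.78 times its lowest.

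Among the 18079 tested genes outside the list, the 12 with the highest Pearson r to the members' mean over the 16 libraries were Wnt6, Cped1, Slc9a2, Thbd, Tfpi, Efemp1, Adamtsl3, Ranbp3l, Slc6a20a, Itih2, Cp and Ddr2. Their r ran from 0.972 to 0.990, and Wnt6, Cped1, Ranbp3l and Itih2 are also in the list of other fibroblast genes below. In all, 32 genes outside the list and 16 members were above 0.95. Wnt6, a secreted Wnt ligand, had 2.41 CPM in KO_Morphine_3, 0.917 in KO_Morphine_1 and 3.80 in WT_Naive_2, against 0.150 to 0.343 CPM in the other 13. Slc6a20a, a proline carrier, had 26.4 CPM in KO_Morphine_3, 12.3 in KO_Morphine_1 and 37.8 in WT_Naive_2, against 2.27 to 5.46 CPM in the other 13. Itih2, a heavy chain of inter-alpha-trypsin inhibitor that binds hyaluronan, had 18.9 CPM in KO_Morphine_3, 10.2 in KO_Morphine_1 and 21.8 in WT_Naive_2, against 1.81 to 2.99 CPM.

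Lists of related genes, all without the 32 members, were read in the same 3 libraries. Of 24 other fibroblast and meningeal genes, 11 passed 2-fold of the median in KO_Morphine_3, 6 in KO_Morphine_1 and 14 in WT_Naive_2, and their summed level was 1.68-, 1.51- and 2.22-fold of its median. Osr1, a zinc finger factor of mesenchyme, was 6.47-fold in KO_Morphine_3, 3.19-fold in KO_Morphine_1 and 18.2-fold in WT_Naive_2. Gjb2, which forms the gap junctions between meningeal cells, was 2.22-fold in KO_Morphine_3, 1.26-fold in KO_Morphine_1 and 4.15-fold in WT_Naive_2. Postn and Dpt, also fibroblast genes, did not show the pattern. Dpt stayed at 0.151 to 0.464 CPM over all 16 libraries. Its lowest value was in KO_Morphine_3, but at counts this low the order of the libraries carries a large sampling error. Postn ran from 2.13 to 20.9 CPM, with its highest value in KO_Morphine_3 but a value below its median in WT_Naive_2.

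Of 25 tested genes of collagen processing and cross-linking, 2 passed 2-fold in KO_Morphine_3, 2 in KO_Morphine_1 and 3 in WT_Naive_2, where 1.52%, 0.762% and 2.15% of all genes did. WT_Naive_2 was the highest of the 16 libraries for 14 of the 25, where it was so for 12.3% of all genes. The summed level of these genes was 2037, 1991 and 2253 CPM against 1864 to 2146 CPM in the other 13. Pcolce, which speeds the trimming of procollagen, was 4.07-fold in KO_Morphine_3, 1.35-fold in KO_Morphine_1 and 4.66-fold in WT_Naive_2, and Lox, which cross-links collagen, was 5.70-fold in KO_Morphine_3, 3.20-fold in KO_Morphine_1 and 6.76-fold in WT_Naive_2. Serpinh1, the collagen chaperone HSP47, was 1.20-fold in KO_Morphine_3, 0.975-fold in KO_Morphine_1 and 1.58-fold in WT_Naive_2. Of 11 other fibril-forming and fibril-associated collagens none passed 2-fold in any of the 3 libraries. Of 23 basement membrane genes, 0 passed in KO_Morphine_3, 0 in KO_Morphine_1 and 4 in WT_Naive_2. WT_Naive_2 was the highest library for 13 of the 23, with a median of 1.42-fold over the genes' own medians, and the list's sums were 688, 640 and 805 CPM against 639 to 721 CPM in the other 13.

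Markers of other cell types moved in part of these libraries. Of 9 border macrophage markers, 7 passed 2-fold in KO_Morphine_3, 1 in KO_Morphine_1 and 7 in WT_Naive_2, with summed levels of 40.5, 23.3 and 43.5 CPM against 17.0 to 22.7 CPM in the other 13. Mrc1, the mannose receptor of these macrophages, had 5.85, 4.07, 8.80 and 2.99 CPM in KO morphine libraries 1 to 4 and 3.12, 10.7, 2.98 and 2.19 in WT naive ones. Of 12 pericyte and smooth muscle markers, 5 passed in KO_Morphine_3, 0 in KO_Morphine_1 and 7 in WT_Naive_2, with sums of 305, 202 and 327 CPM against 180 to 258 CPM. Acta2, smooth muscle actin, was 2.80-fold in KO_Morphine_3, 1.14-fold in KO_Morphine_1 and 3.42-fold in WT_Naive_2. Of 7 arachnoid barrier markers outside the list, 1 passed in KO_Morphine_3, 1 in KO_Morphine_1 and 3 in WT_Naive_2. Cdh1, E-cadherin, which joins these barrier cells, was 12.9-fold in KO_Morphine_3, 5.76-fold in KO_Morphine_1 and 23.4-fold in WT_Naive_2, while the list's sum was 1.03-, 0.958- and 0.903-fold of its median. That sum includes Cldn11, which is also on the oligodendrocyte list read below.

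Lists of cells inside the tissue or its ventricles did not share the pattern. Of the 10 endothelial, 10 neuronal, 10 microglial, 11 oligodendrocyte and 9 ependymal markers, none passed 2-fold in any of the 3 libraries. Of the 15 choroid plexus markers, 0 passed in KO_Morphine_3, 0 in KO_Morphine_1 and 1 in WT_Naive_2, and Ttr, its defining transcript, was at 0.295 to 1.82 CPM over the 16 libraries. Summed oligodendrocyte markers were lowest of all in WT_Naive_2, and the list's sum was 0.958-, 0.861- and 0.696-fold of its median in KO_Morphine_3, KO_Morphine_1 and WT_Naive_2. Red blood cell markers summed to 1.16-, 0.785- and 1.19-fold of their median in KO_Morphine_3, KO_Morphine_1 and WT_Naive_2. The part of these cell types in the members' levels was not tested.

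**Figure D4:**
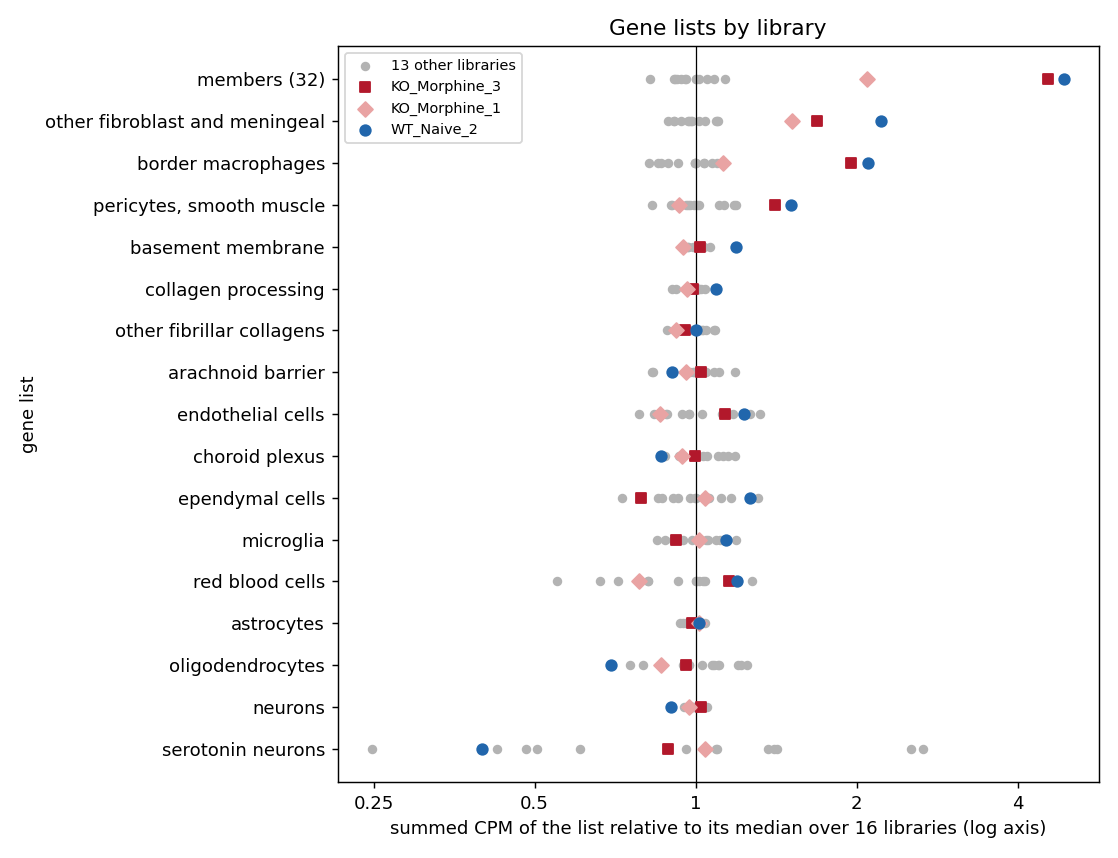
Summed CPM of each gene list relative to its median over the 16 libraries (log axis), with KO_Morphine_3, KO_Morphine_1 and WT_Naive_2 marked and the 13 other libraries in grey. The members, other fibroblast genes and border macrophages stand to the right in KO_Morphine_3 and WT_Naive_2, while astrocyte and neuron lists stay near 1.

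Across the groups, the question is how morphine and the genotype change expression in this region. Because 1 high library sits in the WT naive group and 2 in the KO morphine group, each comparison is given with all 16 libraries and again without KO_Morphine_3 and WT_Naive_2, an alternative chosen with earlier results of these data known. The fit that also leaves out KO_Morphine_1 was added after these data were seen. Changes are fitted log2 fold changes ± SE from edgeR's quasi-likelihood test, called at a Benjamini-Hochberg adjusted p under 0.05 over all tested genes. Comparisons share groups, so their values are not independent of each other.

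In WT mice, morphine against naive gave 0 members called of 32, where 4.41% of all tested genes were called. At an unadjusted p under 0.05 there were 10 members by edgeR, and 20.1% of all genes. DESeq2 called 4 (Col5a1, Foxd1, Slc47a1 and Tbx18, all lower with morphine), with 6.86% of all genes, and limma-voom 0, with 4.84% of all genes. The median log2 fold change of the members was -1.10, with 30 of 32 negative, beside -0.0068 over all genes. The smallest p was that of Col5a1, which averaged 5.05 ± 0.525 CPM in WT morphine and 7.16 ± 1.56 in WT naive libraries (SD, n = 4 each), a change of -0.51 ± 0.15 (edgeR adjusted p = 0.0618). All 4 WT morphine libraries were below all 4 WT naive ones for this gene. A fit of only these 2 groups called 0 members, with 2.32% of all genes. Slc22a6 had a change of -2.80 ± 1.15 and Slc47a1 of -2.42 ± 0.88 (edgeR adjusted p = 0.196 and 0.148), both with errors near 1 on the log2 scale. Without KO_Morphine_3 and WT_Naive_2 the members' median was -0.054, with 14 positive and 18 negative, and 0 were called where 3.07% of all genes were. Without KO_Morphine_1 as well it was again 0, with 3.33% of all genes. Without both libraries, Slc22a6 was at -0.43 ± 0.58 and Col5a1 at -0.34 ± 0.11 (edgeR adjusted p = 0.785 and 0.125). Tbx18 had 0.681, 0.782, 0.601 and 0.710 CPM in WT morphine and 1.01, 5.12, 1.16 and 1.18 in WT naive libraries, with no overlap. Its change was -1.66 ± 0.53 with all libraries and -0.72 ± 0.21 without both (edgeR adjusted p = 0.0975 and 0.0791), so neither passed the threshold.

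In KO mice, morphine against naive gave 1 member called of 32, Col5a2, where 11.5% of all tested genes were called and 5.67% were called higher. By edgeR, 4 members and 25.5% of all genes had an unadjusted p under 0.05. DESeq2 and limma-voom also called 1, the same gene, with 13.2% and 11.2% of all genes. A fit of only these 2 groups called Col6a1 and Col6a3 in its place, with 11.1% of all genes. Col5a2 averaged 9.91 ± 4.40 CPM in KO morphine and 4.63 ± 1.01 in KO naive libraries (SD, n = 4 each) and rose by 1.10 ± 0.31, which is 2.15-fold (edgeR adjusted p = 0.0353). The groups overlapped, since KO_Morphine_1 at 5.50 CPM was below KO_Naive_3 at 5.90. Without KO_Morphine_3 and WT_Naive_2 the change was 0.82 ± 0.27 and no longer passed (edgeR adjusted p = 0.0644). Nor did it pass with no filter on low counts or in the fit of only these 2 groups (edgeR adjusted p = 0.0701 and 0.0751). Leaving out 1 library at a time ended the call in 5 of 16 cases, those of KO_Naive_1, KO_Naive_2, KO_Naive_4, KO_Morphine_3 and KO_Morphine_4, with log2 changes of 0.81 to 1.31 and adjusted p of 0.0135 to 0.0936 over the 16.

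Markers of serotonin neurons of the dorsal raphe, which borders the sampled region, were on average higher in KO morphine than in KO naive libraries, as Col5a2 was. Their sums over 10 genes were 594 to 1788 CPM in KO morphine and 167 to 408 CPM in KO naive libraries. Of the 10, 9 were called higher, where 5.67% of all genes were, and none was at 0 in any library. In WT libraries the sums were 732 to 950 CPM with morphine and 267 to 915 CPM when naive. There 0 of the 10 were called, where 4.41% of all genes were, with a median log2 fold change of 0.56. Library by library the order was mixed. KO_Morphine_3, with the highest Col5a2 level of its group, had the lowest sum of these markers, and the same held for KO_Naive_3 and WT_Naive_2 in their groups. In WT morphine, WT_Morphine_2 and WT_Morphine_4 were highest for Col5a2 and had the highest sums (950 and 940 CPM, against 734 and 732). From KO_Morphine_1 to KO_Morphine_2 and KO_Morphine_4, both Col5a2 and the sums rose (sums of 698, 1695 and 1788 CPM). The part of this tissue in the Col5a2 result was not tested.

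The median change of the members in KO mice was 0.74, with 28 of 32 positive, beside -0.00032 over all genes, and it was 0.29 without KO_Morphine_3 and WT_Naive_2. Fmod had the largest change, 2.44 ± 1.15 with all libraries and 1.33 ± 0.47 without both (edgeR adjusted p = 0.207 and 0.0843). KO_Morphine_1 is still in that second fit. Without KO_Morphine_1 as well the median of the members was -0.14, with 12 positive and 20 negative, and Fmod was at 0.21 ± 0.20 (edgeR adjusted p = 0.554).

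Other members were called in KO mice in the reduced fits. Without KO_Morphine_3 and WT_Naive_2 there were 3 of 32, where 14.8% of all genes were called. Col6a1 was higher with morphine (0.51 ± 0.14), and Col6a3 (-0.32 ± 0.10) and Igfbp2 (-0.65 ± 0.14) were lower (edgeR adjusted p = 0.0239, 0.0489 and 0.00616). With all libraries these changes were 0.63 ± 0.35, -0.30 ± 0.13 and 0.04 ± 0.48, so that of Igfbp2 changed sign. For Col6a3, KO morphine libraries were at 13.5, 12.9, 13.3 and 11.6 CPM and KO naive ones at 16.1, 15.1, 15.7 and 16.0, without overlap. For Col6a1, all 4 KO morphine libraries were above all 4 KO naive ones. Without KO_Morphine_1 too there were 4 of 32, with 11.5% of all genes: Col5a2 (1.05 ± 0.27), Col6a1 (0.60 ± 0.15), Igfbp2 (-0.73 ± 0.16) and Foxd1 (-1.03 ± 0.30). Their edgeR adjusted p were 0.0296, 0.0200, 0.0121 and 0.0307, and Col6a3 was at -0.37 ± 0.12 with 0.0560. An unadjusted p under 0.05 by edgeR was found for 13 members and 28.3% of all genes without KO_Morphine_3 and WT_Naive_2. It was found for 9 members and 25.2% without KO_Morphine_1 as well.

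**Figure D5:**
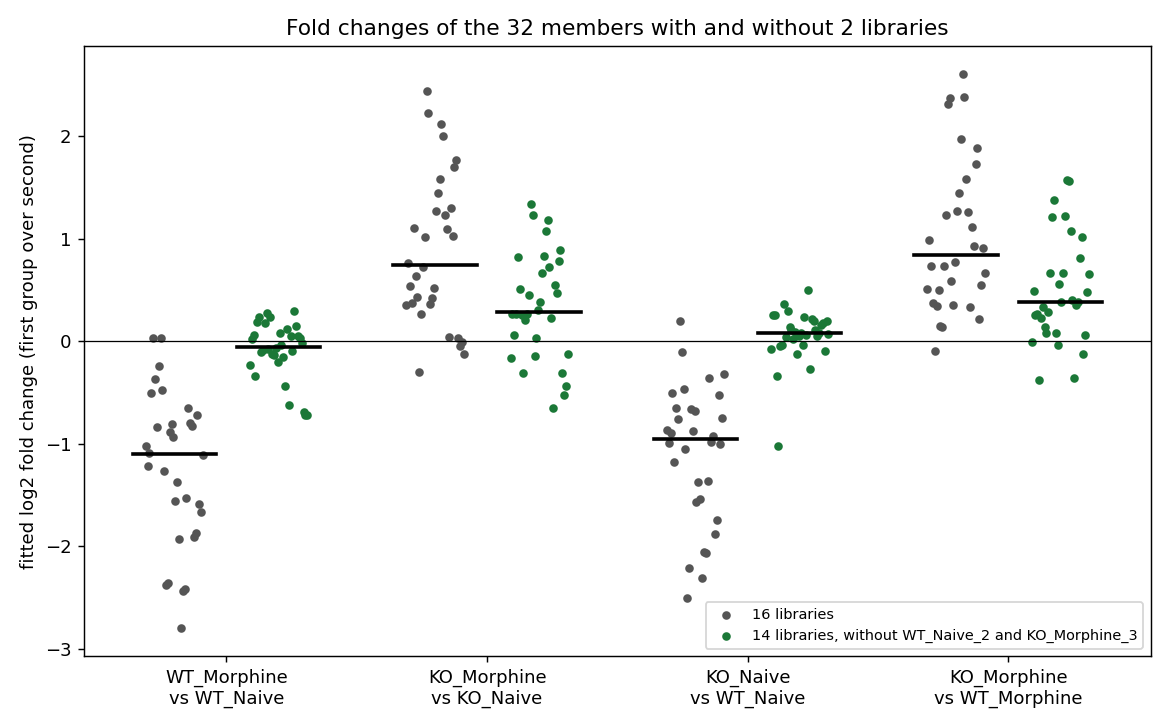
Fitted log2 fold change of each of the 32 members in 4 comparisons (first group over second), with all 16 libraries (grey) and without WT_Naive_2 and KO_Morphine_3 (green). The bars are medians, which lie at -1.10, 0.74, -0.96 and 0.84 with all libraries and at -0.054, 0.29, 0.079 and 0.38 without both.

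Between naive mice, KO against WT gave 0 members called, where 0.906% of all genes were. At an unadjusted p under 0.05 there were 4 members and 12.9% of all genes by edgeR. DESeq2 and limma-voom each called 1, Col5a2, with 2.08% and 1.31% of all genes. A fit of only these 2 groups also called Col5a2, with 0.866% of all genes. The members' median change was -0.96, with 31 of 32 negative. It was 0.079, with 23 positive and 9 negative, without KO_Morphine_3 and WT_Naive_2, where 0 members and 0.572% of all genes were called. Without KO_Morphine_1 as well, 0 members and 0.761% of all genes were called. Col5a2 was the member with the smallest p and averaged 4.63 ± 1.01 CPM in KO naive and 10.3 ± 2.12 in WT naive libraries (SD, n = 4 each). All 4 KO naive libraries were below all 4 WT naive ones. The change was -1.18 ± 0.30 with all libraries and -1.02 ± 0.26 without both (edgeR adjusted p = 0.0971 and 0.139). DESeq2 gave an adjusted p of 0.0154 and limma-voom of 0.0348 for it with all libraries.

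Under morphine, KO against WT gave 0 members called, where 0.53% of all genes were. An unadjusted p under 0.05 by edgeR was found for 2 members and for 9.64% of all genes. DESeq2 and limma-voom called 0, with 1.12% and 0.458% of all genes. A fit of only these 2 groups called 0, with 0.483%. The median change was 0.84, with 31 of 32 positive. It was 0.38 without KO_Morphine_3 and WT_Naive_2 and 0.067 without KO_Morphine_1 as well, and 0 members were called in both fits, where 1.29% and 1.2% of all genes were. Slc22a6 had the largest change, 2.61 ± 1.18, then 1.57 ± 0.54 and 0.18 ± 0.23 in these fits (edgeR adjusted p = 0.506, 0.207 and 0.806).

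The interaction of genotype label and morphine, the change with morphine in KO mice minus that in WT mice, gave 0 members called, and 0.0% of all genes. By edgeR 20 members and 12.1% of all genes had an unadjusted p under 0.05. DESeq2 called 2 members (Col5a1 and Slc22a6), with 0.591% of all genes, and limma-voom 0, with 0.0%. Without KO_Morphine_3 and WT_Naive_2, edgeR called 0 members and 0.352% of all genes, and 0 members and 0.707% without KO_Morphine_1 as well. The members' median was 1.65, with 31 of 32 positive, and it was 0.31 without KO_Morphine_3 and WT_Naive_2 and -0.063 without KO_Morphine_1 as well. Col5a1 had the smallest p, with 0.88 ± 0.21 (edgeR adjusted p = 0.174). Slc22a6 was at 4.92 ± 1.60 with all libraries, at 1.51 ± 0.77 without both and at 0.12 ± 0.29 without the 3 (edgeR adjusted p = 0.294, 0.458 and 0.916). In the fit without both libraries, an unadjusted p under 0.05 was found for 4 members and 15.5% of all genes for morphine in WT mice. It was found for 4 members and 10.5% for naive KO against WT, for 16 and 14.4% for KO against WT with morphine, and for 3 and 12.8% for the interaction. Without the 3 libraries these were 6 members and 16.0%, 7 and 11.2%, 2 and 13.3%, and 5 and 12.4%, in the same order. The difference between the genotypes in the response of these genes was therefore not shown at this threshold by edgeR.

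Genes that work beside the members were read in the same fit of 16 libraries. Of all tested genes, 2.34% rose and 2.07% fell with morphine in WT mice, and 5.67% rose and 5.83% fell in KO mice. Between the genotypes, 0.442% were higher and 0.464% lower in naive KO mice, and 0.254% and 0.276% in KO mice with morphine. The counts for each list stand beside these shares, and none of the lists was tested as a set. Of the 24 other fibroblast and meningeal genes, 2 rose with morphine in KO mice, Col14a1 (0.68 ± 0.17) and Gpc3 (0.60 ± 0.18), and 0 were called in the other 4 tests (edgeR adjusted p = 0.0142 and 0.0461). Col14a1 encodes a fibril-associated collagen and Gpc3 a membrane proteoglycan. The KO morphine group of this fit holds KO_Morphine_3 and KO_Morphine_1, where 11 and 6 of these 24 genes passed 2-fold of the median. The part of these libraries in the 2 calls was not tested. Of the 25 collagen processing genes, P4ha2, a prolyl hydroxylase subunit, rose with morphine in WT mice (0.26 ± 0.06, edgeR adjusted p = 0.0181). In KO mice 2 of 25 fell with morphine, P4ha1 (-0.18 ± 0.05) and Adamts3, a procollagen protease (-0.70 ± 0.10; edgeR adjusted p = 0.0281 and 0.000413). Adamts3 was also lower in KO morphine than in WT morphine libraries (-0.58 ± 0.10, edgeR adjusted p = 0.00962). It had 9.14, 8.40, 11.3 and 9.99 CPM in KO morphine libraries 1 to 4, against 14.9, 13.5, 15.1 and 14.6 in WT morphine ones, and these did not overlap.

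Of the 11 other fibril-forming and fibril-associated collagens, 1 fell with morphine in WT mice, Col9a3 (-0.19 ± 0.05, edgeR adjusted p = 0.0486). In KO mice 3 fell, Col16a1 (-0.46 ± 0.07), Col11a2 (-0.20 ± 0.05) and Col9a3 (-0.17 ± 0.05), and Col14a1 rose (edgeR adjusted p = 0.000560, 0.0140 and 0.0464 for those that fell). Col16a1 had 54.3, 55.6, 65.1 and 51.0 CPM in KO morphine and 72.4, 81.9, 79.4 and 76.9 in KO naive libraries, without overlap. Of 23 basement membrane genes, 1 fell with morphine in WT mice, Lama5, a laminin chain (-0.46 ± 0.11, edgeR adjusted p = 0.0202), and 0 were called in KO mice.

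Genes that act on or with the members' products changed in a few cases. Of 14 genes of the IGF system outside the list, the adaptor Irs2 rose and the adaptor Irs1 fell with morphine in both genotypes. Irs2 changed by 0.20 ± 0.04 in WT mice and 0.19 ± 0.04 in KO mice (edgeR adjusted p = 0.0154 and 0.0102). Irs1 changed by -0.23 ± 0.06 in WT mice and -0.23 ± 0.06 in KO mice (edgeR adjusted p = 0.0258 and 0.0154). Of 15 retinoid genes outside the list, the receptor Rxra rose and Rarg fell in WT mice, and 0 were called in KO mice. Neither of these lists had a call between the genotypes or in the interaction.

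Cells of the vessel wall were read in the same fit. Pdgfrb, a growth factor receptor of pericytes and fibroblasts, fell with morphine in WT mice (-0.73 ± 0.08) and KO mice (-0.35 ± 0.08) and was lower in KO naive than in WT naive libraries (-0.39 ± 0.08; edgeR adjusted p = 4.05e-05, 0.0112 and 0.0210). Of 12 pericyte and smooth muscle markers it was the only one called in WT mice, and Rgs5 fell as well in KO mice. Of 10 endothelial markers, 4 fell with morphine in WT mice and 4 in KO mice (Kdr, Cldn5, Slco1a4 and Tek in both), beside 2.07% and 5.83% of all genes, and none rose.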

How the data were processed

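Each deposited file gives 1 library's raw counts of reads per gene. Per the labels' protocols, TRIzol was used for RNA from the pooled punches, and the TruSeq RNA v2 chemistry keeps no strand. The submitters' processing notes name HTSeq, mm10 and limma. Which aligner and gene models were used, and whether counting was stranded, is not stated there. The 5 tally rows of each file (38.2 to 40.6% of it) stayed out of library sizes and tests.

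Genes were named and placed with GENCODE M21 on GRCm38 (37607 of 38924 identifiers matched). The spans of 13 members, introns included, overlap that of another annotated gene, for 9 of them on the opposite strand. Shared exons were not examined, so whether reads of such partners entered the members' counts is not known. No pair of replicates agreed within sampling noise (chi-square per gene at least 3.73). Same-numbered libraries were not treated as pairs. Counts were filtered with filterByExpr (minimum count 10), scaled with TMM and fitted with edgeR 4.0.16 (quasi-likelihood, robust; R 4.3.3) in 1 fit of 16 libraries with a coefficient per group and a common biological coefficient of variation of 0.0835. The code was checked on simulated counts. DESeq2 1.42.0, limma-voom 3.58.1, other filters and scalings, a replicate block and fits without libraries were alternatives. CPM are TMM-scaled, and the members' mean per library used log2 CPM with a prior count of 2.

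Members and gene lists were chosen with earlier results of these data known, including which libraries stand apart, so library differences carry no test. Members given in full are the 2 or 3 of each role with the highest level per kilobase, those called or with the smallest p in a comparison, and those that follow the rest least and most. Fmod, Ogn, Slc22a6, Tbx18 and Col6a3, and the genes outside the list shown by library, were added after their values were seen. Genes outside the list were tested in the 16-library fit alone.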

Additional observations from a re-analysis of the deposited data

Results flagged for a closer look

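Within each group of 4, the gap of the highest or lowest library to its nearest neighbour, divided by the group's range of CPM, was compared with Dixon's 95% critical value for 4 samples. Of 132 sets examined (32 genes and their sum in 4 groups) 36 passed. WT_Naive_2 was the library set apart in 28 of them and KO_Morphine_3 in 3. Both were known to stand out when the genes were chosen, and the 32 genes are not independent of each other. Chance flags about 1 in 20 sets under this comparison, but that rate is no test of these counts, which are a description.

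In WT naive libraries the values for WT_Naive_2 were, among the collagens, Col1a2 (0.978), Col5a1 (0.947), Col1a1 (0.938), Col6a2 (0.916), Col6a1 (0.906) and Col3a1 (0.868). Among other matrix proteins they were Fmod (0.988), Ogn (0.987), Mgp (0.955), Lum (0.932), Islr (0.927), Fbln1 (0.907), Dcn (0.906), Bgn (0.884) and Fn1 (0.863). Among transporters they were Slc13a4 (0.988), Slc6a13 (0.983), Slc22a6 (0.978) and Slc47a1 (0.914). Among secreted factors and retinoid genes they were Aldh1a2 (0.992), Igf2 (0.979), Crabp2 (0.973), Serping1 (0.967) and Ptgds (0.934). Among transcription factors they were Foxc1 (0.978), Tbx18 (0.96) and Foxd1 (0.91). For the sum of the 32 members the value was 0.952.

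In KO morphine libraries KO_Morphine_3 was flagged as the high library for Igfbp2 (0.892), Bgn (0.851) and Col1a1 (0.842). For most other members KO_Morphine_1 lies between it and the rest, which shortens the gap. In WT morphine libraries WT_Morphine_2 was low for Col3a1 (0.891) and Col5a1 (0.863), WT_Morphine_3 was high for Col6a1 (0.924), and WT_Morphine_4 was high for Lum (0.886) and Mgp (0.877). No KO naive set was flagged.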

How the results depend on the processing

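Scaling by DESeq2 size factors, no filter, dispersions without the robust option, DESeq2, limma-voom, the replicate block and fits of only the groups compared kept the direction of each comparison's median of the members. DESeq2's Wald test called more genes than edgeR: 1242 against 798 for morphine in WT mice, 376 against 164 and 202 against 96 for KO against WT in naive and morphine mice, and 107 against 0 for the interaction. It called 4, 1 and 2 members for morphine in WT mice, naive KO against WT and the interaction, where edgeR called 0. DESeq2 gave no adjusted p for 2117 genes (morphine in WT mice), 1766 (morphine in KO mice) and 3520 (interaction). Between the genotypes it gave none for 10 genes in each comparison. Its shares above are of all 18111 genes, these included. For naive KO against WT, limma-voom called 1 member, as did edgeR on only the groups compared. That restricted fit called 2 members for morphine in KO mice and 410 of all genes in WT mice. With no filter on low counts, 0 members were called for morphine in KO mice and 1 gene in the interaction.

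Without KO_Morphine_3 and WT_Naive_2, all-gene counts were 104 (naive KO against WT), 235 (KO against WT with morphine) and 64 (interaction), 3 members were called for morphine in KO mice, and the members' medians were -0.054, 0.079 and 0.31 for morphine in WT mice, naive KO against WT and the interaction. Without KO_Morphine_1 as well, counts were 223 (KO against WT with morphine) and 131 (interaction), 4 members were called in KO mice, and medians were -0.049 (morphine in WT), -0.14 (morphine in KO), 0.080 (naive KO against WT), 0.067 (KO against WT with morphine) and -0.063 (interaction). These fits leave out the high libraries, but they also hold fewer libraries and other sets of tested genes (18177 and 18522, against 18111). Which of these moved the values was not tested. Igfbp2 for morphine in KO mice turned negative with limma-voom (-0.28), in the fit with the replicate block (-0.0069), without both libraries (-0.65) and without the 3 (-0.73).

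Same-numbered libraries of different groups did not deviate together (r from -0.16 to 0.13), so the numbers do not pair them, and in 3 of the 16 checks the same number gave the highest correlation. With the replicate block 512 genes were called for morphine in WT mice and 89 for naive KO against WT, and no call of a member changed.

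Leaving out 1 library at a time, members called ran from 0 to 3 for morphine in WT mice (3 without WT_Naive_4, 1 without KO_Morphine_3), 0 to 4 in KO mice (4 without WT_Naive_2, 0 without KO_Naive_1, KO_Naive_2, KO_Naive_4, KO_Morphine_3 or KO_Morphine_4), 0 to 1 for naive KO against WT (1 without KO_Morphine_3), and 0 for the other comparisons. All-gene counts ran from 378 (without WT_Naive_3) to 1252 (without WT_Naive_4), 1036 (without KO_Naive_2) to 2341 (without WT_Naive_2), 68 (without KO_Naive_2) to 210 (without WT_Naive_4), 49 (without KO_Morphine_4) to 129 (without WT_Naive_2) and 0 to 56 (without KO_Morphine_3) for morphine in WT mice, morphine in KO mice, naive KO against WT, KO against WT with morphine and the interaction. Medians ran from -1.34 to -0.054 for morphine in WT mice, -1.19 to 0.079 for naive KO against WT and 0.72 to 1.90 for the interaction, the end nearest to 0, or past it, being the fit without WT_Naive_2. Morphine changes in KO mice ran from -0.65 to 0.25 for Igfbp2 and -0.53 to 0.23 for Foxd1. The cause of these moves was not tested. Depth limits the members with a few counts a library, Foxd1 and Crabp2 first.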
